A study of Mus musculus with 6 samples.

Results

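The 9 genes described here encode proteins that epithelia secrete, or carry across to the lumen, as a first defence against microbes: Pigr, Lbp, Pglyrp1, Slpi, Ltf, Lcn2, Cp, C3 and Cfb. They were taken by symbol from a table of 24498 genes, and all 9 symbols were present. Bulk RNA came from mouse prostate epithelial cells that carried a reporter and were sorted by it. In the groups called Nkx here the mice carried an inducible Cre recombinase, CreER(T2), with an EYFP reporter at the ROSA26 locus. In the Clu group they carried Clu-CreER(T2), with Cre under the gene of clusterin, a secreted chaperone, and a tdTomato reporter at the same locus. All mice were males. At 8 weeks of age they were left intact (Nkx intact and Clu intact) or castrated (Nkx castrate), and tissue was taken 4 weeks later. The labels also give an age range, the same for every library, that begins below the age at surgery and ends above that at harvest. The exact age of each animal is therefore not known. There were 2 libraries per group and 6 in all, named here by group and number. The labels do not give the time at which Cre was induced, do not name a gate other than the reporter, and do not tie a library to an animal. The p-values therefore reflect only how far these libraries lie apart, which may be technical. The lines and reporters differ between the Nkx and Clu groups, and line and reporter cannot be told apart from cell identity.

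Secretions of mucosal surfaces combine several lines of defence. The polymeric immunoglobulin receptor, encoded by Pigr, carries IgA and IgM through the epithelial cell and is released with them. Lbp, the lipopolysaccharide-binding protein, hands bacterial endotoxin to CD14 and the TLR4 receptor, and Pglyrp1 binds bacterial peptidoglycan. Slpi, the secretory leukocyte protease inhibitor, protects tissue from neutrophil proteases. Ltf (lactoferrin) and Lcn2 (lipocalin 2) withhold iron from bacteria, the first by binding iron itself and the second by binding bacterial siderophores. Cp (ceruloplasmin) is a copper-carrying ferroxidase. C3 is the central protein of complement, and Cfb (complement factor B) supplies the protease of the alternative pathway.

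Depth lay between 10220118 and 17412874 counts per library. All 9 luminal and all 8 basal epithelial markers had counts in every library, and the luminal markers summed to between 4593 and 8996 CPM. CPM are counts scaled to a common library size (edgeR's CPM) with TMM factors, which correct the library totals for differences in composition. Nkx castrate 1 stood apart in its group, with 6.36 times the endothelial, 4.00 times the fibroblast and smooth muscle and 5.40 times the macrophage marker RNA of Nkx castrate 2. Low counts were mostly even, which bears on the rare members. Among genes with 1 to 19 counts, 74.8% to 82.7% of the values in a library were even, against 50.1% to 53.7% among genes with at least 1000 counts. Whether both mates of a read pair were counted is not given in the sources used here, so counting intervals are also given on halved counts. They cover counting error only.

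RefSeq promoter sequences on the build GRCm38.p6 were at hand for 7 of the 9 genes (not for Lbp and Cfb). The counts were made on GRCm39, so the positions belong to the sequence table and not to the count table. The 5 sequences below are shown for the genes on which the results turn: Pigr and Pglyrp1, which had the largest called changes with castration and between the lines, Lcn2 and Cp, whose profiles over the libraries were the most alike among the members, and C3, which split the castrate libraries. Each runs 5′ to 3′ over the 250 bases that end just before the annotated start. Capitals mark matches to any of 5 motifs searched on both strands: GGGA and TTCC with 2 bases between them (NF-kB), TTCNNNGAA (STAT), TTGCNNAA (C/EBP), TGTTCT (1 arm of an androgen response element) and TTTC and TTTC with 2 bases between them (interferon response element). The window of Pigr lies at chr1:130826434-130826683, plus strand, that of Pglyrp1 at chr7:18884440-18884689, plus strand, that of Lcn2 at chr2:32387740-32387989, minus strand, that of the second annotated start of Cp at chr3:19956999-19957248, plus strand, and that of C3 at chr17:57228137-57228386, minus strand.
Pigr: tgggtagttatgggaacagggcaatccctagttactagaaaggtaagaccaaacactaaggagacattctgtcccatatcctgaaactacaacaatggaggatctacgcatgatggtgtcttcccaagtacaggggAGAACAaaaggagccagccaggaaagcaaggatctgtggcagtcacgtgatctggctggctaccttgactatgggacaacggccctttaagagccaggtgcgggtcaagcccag
Pglyrp1: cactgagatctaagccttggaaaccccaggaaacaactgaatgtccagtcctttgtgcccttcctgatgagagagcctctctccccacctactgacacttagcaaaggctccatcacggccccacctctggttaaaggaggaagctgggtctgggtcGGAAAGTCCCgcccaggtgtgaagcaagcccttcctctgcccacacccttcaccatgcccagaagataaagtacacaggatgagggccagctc
Lcn2: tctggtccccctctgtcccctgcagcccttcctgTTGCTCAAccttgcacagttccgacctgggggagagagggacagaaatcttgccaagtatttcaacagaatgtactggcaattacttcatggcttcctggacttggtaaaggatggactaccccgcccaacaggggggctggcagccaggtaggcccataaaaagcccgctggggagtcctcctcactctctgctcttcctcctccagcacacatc
Cp: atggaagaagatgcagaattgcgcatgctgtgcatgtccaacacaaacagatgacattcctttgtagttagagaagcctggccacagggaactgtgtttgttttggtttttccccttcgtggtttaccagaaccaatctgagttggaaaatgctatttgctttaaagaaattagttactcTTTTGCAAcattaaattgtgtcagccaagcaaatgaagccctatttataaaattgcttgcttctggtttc
C3: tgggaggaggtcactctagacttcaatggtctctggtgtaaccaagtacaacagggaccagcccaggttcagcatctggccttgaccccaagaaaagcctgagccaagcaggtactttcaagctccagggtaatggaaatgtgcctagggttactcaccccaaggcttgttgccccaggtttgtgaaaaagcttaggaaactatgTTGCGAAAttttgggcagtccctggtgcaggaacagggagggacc

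The C/EBP letters were found upstream of 5 of the 7 genes (Slpi, Ltf, Lcn2, Cp and C3), against 9.56% of the 32851 windows of the same length in the table. Cp has 2 annotated starts, and its match lies in the window shown. The NF-kB letters were found in Pglyrp1 alone (1.21% of all windows), and the androgen letters in Pigr and in the other window of Cp (16.1% of all windows). No member window held the STAT (7.02%) or the interferon (2.98%) letters. These matches are descriptions of letters, and binding was not measured.

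**Figure D1:**
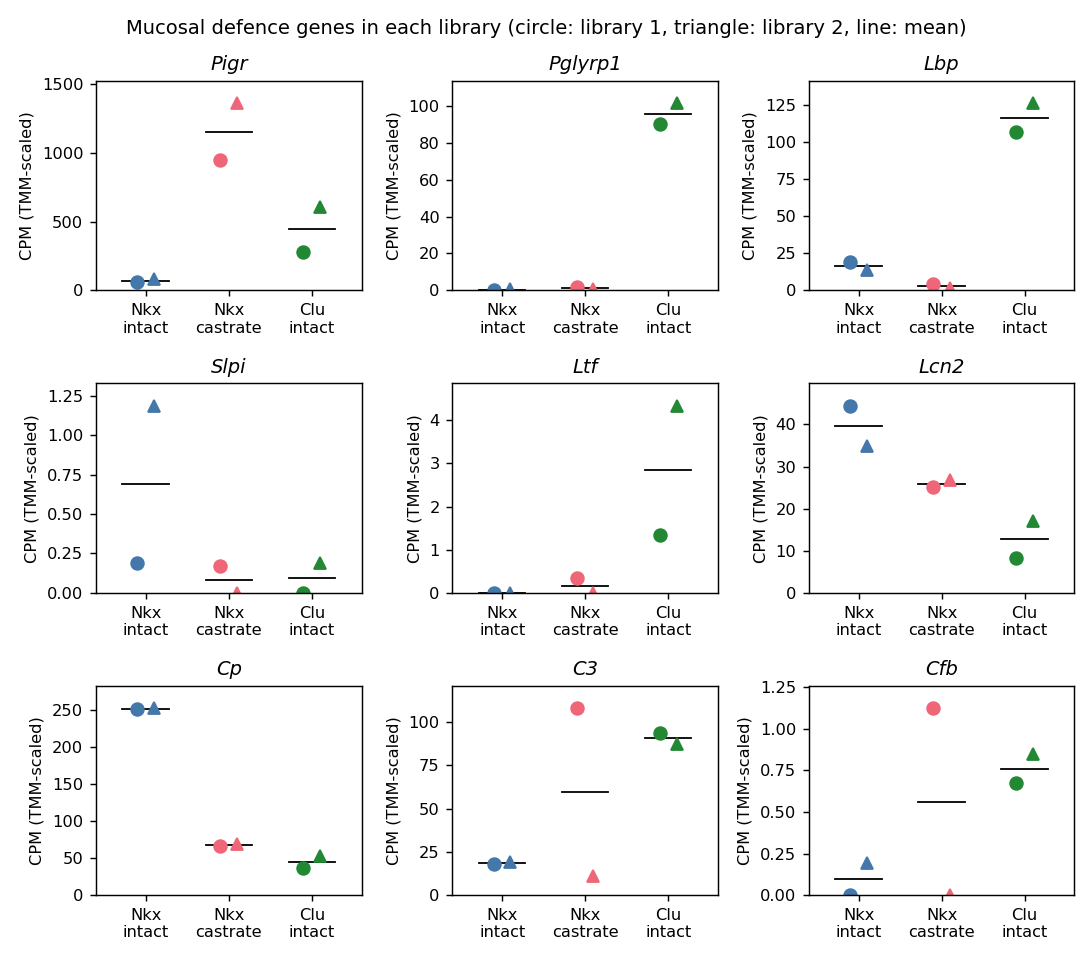
Level of each of the 9 genes in each library, in CPM on a linear axis that starts at 0 (circle, library 1 of a group; triangle, library 2; line, group mean). Pigr is highest in both Nkx castrate libraries, Pglyrp1 and Lbp in both Clu intact libraries, Cp and Lcn2 in both Nkx intact libraries, and C3 parts Nkx castrate 1 (107.7 CPM) from Nkx castrate 2 (11.4 CPM).

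Castration of the Nkx line addresses how androgen withdrawal changed the marked cells. Pigr rose, and Lbp and Cp fell. Of the 7 members that passed the filter on low counts, 1 was higher and 2 were lower in Nkx castrate in edgeR's quasi-likelihood test (Benjamini-Hochberg adjusted p under 0.05), against 4.02% higher and 4.59% lower among all 13846 genes tested. Over all 9 members, the libraries lay apart without overlap for 1 higher and 4 lower, a separation that 25.4% and 24.6% of the tested genes showed. The 4 include Slpi, which was not tested. The median log2 fold change of the 7 was 1.33, against 0.05 over all genes tested. That median is the value of Pglyrp1, which was not called (edgeR adjusted p = 0.244) and rests on 40 against 10 counts. It does not show a shift of the members as a set. Cp and Lbp moved against Pigr, so the members did not share a direction. Without Nkx castrate 1 the counts were again 1 higher and 2 lower, without Nkx castrate 2 they were 3 and 2 (C3 and Pglyrp1 joined Pigr), and without either Nkx intact library 1 and 1. Slpi and Cfb did not pass the filter, and Ltf and Pglyrp1 passed it through the Clu group.

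The comparison of the intact lines addresses how Clu-marked cells differ from Nkx-marked cells when androgen is present. Pglyrp1, Lbp and Pigr were higher and Cp and Lcn2 lower in Clu intact. Of the 7 tested members 3 were called higher and 2 lower by edgeR, where 6.29% and 5% of all genes were. The libraries of the groups did not overlap for any of the 9 members (6 higher and 3 lower in Clu intact). Of all tested genes, 31.9% and 31.3% also showed this separation in the same directions. Slpi and Cfb are among the 9 but were not tested. For Slpi the gap lies between Clu intact 2 (0.188 CPM) and Nkx intact 1 (0.191 CPM), with 2 counts each. Scaled by library totals alone, these Slpi values change order (0.18979 and 0.18971 CPM). The median log2 fold change of the tested members was 2.61, against -0.01 over all genes. The counts were 5 higher and 2 lower without either Nkx castrate library (C3 and Ltf were added), 2 and 1 with Nkx intact 1 left out, 1 and 1 with Nkx intact 2 left out, and 3 and 1 with Clu intact 1 left out. Ltf and Pglyrp1 passed the filter through the group where they were high, so these counts and medians are a description.

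Between Clu intact and Nkx castrate, which asks how Clu-marked cells compare with the Nkx-marked cells left after castration, Pglyrp1 and Lbp were higher and Pigr lower in Clu intact. Of the 7 tested members 2 were called higher and 1 lower by edgeR, where 8.82% and 8.1% of all genes were. Of the 9 members, 3 lay higher and 3 lower without overlap, as 31.5% and 30% of the tested genes did. Without Nkx castrate 1 there were 4 higher and 1 lower (C3 and Ltf were added), and none was lower without Nkx intact 1, Nkx intact 2 or Clu intact 1. The median log2 fold change of the tested members was 0.60, against -0.00 over all genes. That median is the value of C3, which was not called (edgeR adjusted p = 0.631). Ltf and Pglyrp1 passed the filter through Clu intact here too, so these numbers are a description. The 3 comparisons share groups and are not independent of each other.

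Markers of the regions of the prostate moved with the groups as well. The 8 markers of proximal luminal cells, those near the urethra, summed to 921 and 1042 CPM in the Nkx intact pair, 2341 and 3426 CPM in the castrate pair, and 6117 and 7053 CPM in the Clu pair. The 8 markers of distal secretory luminal cells, several of them androgen-dependent, summed to 15642 and 20332 CPM, 290 and 392 CPM, and 8845 and 6956 CPM in the same order. Krt19, a keratin, carried most of the proximal sum in the castrate pair. Without it the other 7 proximal markers summed to 434 and 439 CPM, 485 and 545 CPM, and 4323 and 4889 CPM, so the Nkx groups lay close together and the Clu pair stayed apart. The proximal sum was thus highest in both libraries where Pglyrp1 and Lbp were highest, and the distal sum was lowest in the castrate pair, where Lbp was lowest and Pigr highest. The part of regional makeup in the values of the members was not tested. In bulk samples, fewer cells of a type and less RNA per cell cannot be told apart.

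**Figure D2:**
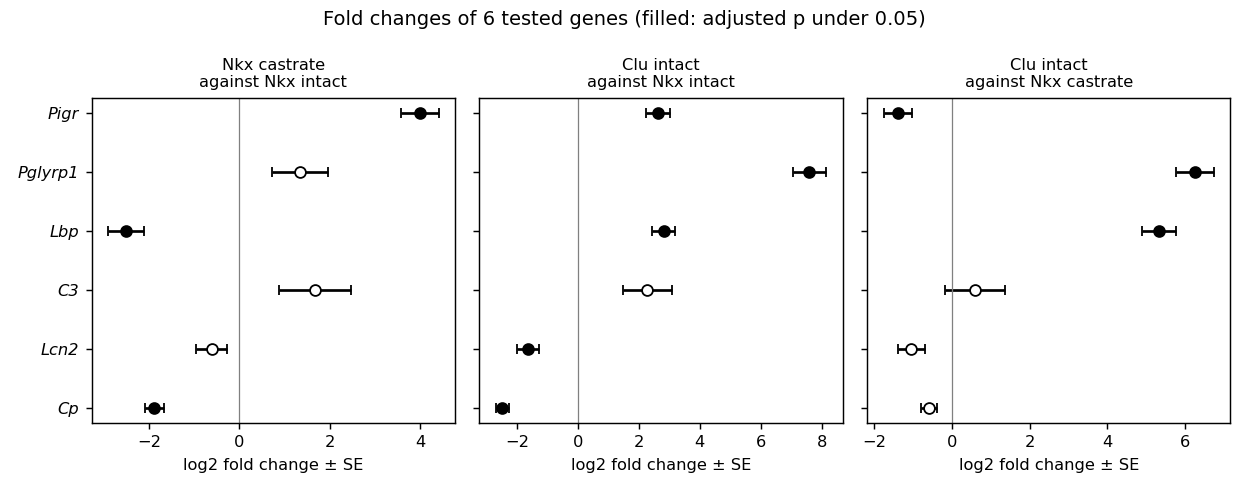
Log2 fold change with its SE for 6 of the 7 tested genes in the 3 comparisons, positive where the first-named group is higher (filled symbols, adjusted p under 0.05). Pglyrp1 and Lbp lie to the right in both Clu comparisons, and Pigr lies to the right in the castration comparison (3.99) and to the left between Clu intact and Nkx castrate (-1.38).

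Pigr, the immunoglobulin carrier, was at 62.2 and 82.6 CPM in the Nkx intact pair, 947 and 1359 CPM in the castrate pair, and 277 and 610 CPM in the Clu pair. The 3 groups did not overlap, with Nkx castrate highest and Nkx intact lowest. The Clu intact libraries differed 2.21-fold between themselves, the widest replicate gap of the gene. Relative to Nkx intact, the fold was 15.9 in Nkx castrate (log2 fold change 3.99, SE 0.41, edgeR adjusted p = 0.00207) and 6.12 in Clu intact (log2 fold change 2.61, SE 0.39, adjusted p = 0.0057). Clu intact was 2.6-fold below Nkx castrate (log2 fold change -1.38, SE 0.37, edgeR adjusted p = 0.0401). The castration call held in all 18 alternatives. The call between the intact lines was lost without Nkx intact 1 (edgeR adjusted p = 0.0825) and without Nkx intact 2 (0.0625), and its log2 fold change was 1.95 without Clu intact 2. The call between Clu intact and Nkx castrate was lost with only the 4 libraries compared (edgeR adjusted p = 0.0901), with a 1.5-fold minimum (0.124), and without Nkx intact 1 (0.0868), Nkx intact 2 (0.088) or Clu intact 1 (0.167). Its log2 fold change was -0.90 without Clu intact 1 and -2.03 without Clu intact 2.

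Jchain, the joining chain of the immunoglobulins that Pigr carries and a product of plasma cells, was high in Nkx castrate 1 alone. It was at 4.4 and 1.98 CPM in the Nkx intact pair, 26.8 and 3.40 CPM in the castrate pair, and 0.169 and 0.941 CPM in the Clu pair. In Nkx castrate 2, where Pigr was highest of all libraries, Jchain lay within the range of Nkx intact. The 12 plasma and B cell markers summed to 141 and 130 CPM in the Nkx intact pair, 333 and 46.0 CPM in the castrate pair, and 48.6 and 65.5 CPM in the Clu pair. Derl3, a protein quality control gene of the endoplasmic reticulum, made up most of the sum in the Nkx intact and Clu libraries. Without it the other 11 markers summed to 48.2 and 21.0 CPM, 323 and 41.8 CPM, and 7.93 and 7.43 CPM in the same order, so Nkx castrate 1 was highest, Nkx castrate 2 lay within the Nkx intact range and the Clu pair was lowest. The part of these cells in the Pigr values was not tested.

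Pglyrp1, the peptidoglycan-binding protein, was at 0.191 and 0.790 CPM in Nkx intact (2 and 8 counts), 1.68 and 0.739 CPM in the castrate pair (30 and 10 counts), and 90.3 and 101.1 CPM in the Clu pair (1070 and 1075 counts). Both Clu libraries were far above all 4 Nkx libraries, which overlapped among themselves. Pglyrp1 passed the filter on low counts through these Clu libraries, so its folds in Clu intact are a description. Clu intact was 193-fold above Nkx intact (log2 fold change 7.59, SE 0.55, edgeR adjusted p = 0.000424) and 76.4-fold above Nkx castrate (6.26, SE 0.48, adjusted p = 0.000338). Both calls held in all 18 alternatives. The first value rests on few Nkx intact counts and ranged from 6.92 to 8.90 when Nkx intact 1 or Nkx intact 2 was left out, and the second was 7.00 without Nkx castrate 1. With castration the log2 fold change was 1.33 (SE 0.62, edgeR adjusted p = 0.244), which did not pass, and a call appeared without Nkx castrate 2 (1.76, adjusted p = 0.0481). Leaving out Nkx intact 1 gave 0.63, Nkx intact 2 gave 2.63 and Nkx castrate 1 gave 0.59, none of them called. Pglyrp1 is also stored in neutrophil granules. The 16 neutrophil markers summed to between 1.92 and 11.7 CPM in any library and to 2.19 and 2.35 CPM in Clu intact. Of these markers, Elane, Mpo, Prtn3, Ngp, S100a8, S100a9, Ly6g, Retnlg, Stfa2l1 and Trem1 had 0 counts in both Clu libraries. Mmp8 (11 and 12 counts) and Mmp9 (10 and 6 counts) had counts in both. Camp, Csf3r, Cxcr2 and Cd177 had counts in only 1 of them. The part of neutrophils in the Pglyrp1 values was not tested.

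Lbp, the endotoxin carrier, was at 18.9 and 14.0 CPM in the Nkx intact pair, 4.04 and 1.63 CPM in the castrate pair, and 106.5 and 126 CPM in the Clu pair. The groups did not overlap, and their order was Clu intact, Nkx intact, Nkx castrate. Lbp was 5.70-fold lower after castration (log2 fold change -2.51, SE 0.40, edgeR adjusted p = 0.00889). That call was lost with only the 4 libraries compared (edgeR adjusted p = 0.0556) and without Nkx intact 1 (0.0736) or Nkx intact 2 (0.0594), and the log2 fold change was -3.33 without Nkx castrate 1. Clu intact was 7.04-fold above Nkx intact (2.82, SE 0.37, edgeR adjusted p = 0.00379), a call that was lost without Nkx intact 2 (0.0615). It was 40.1-fold above Nkx castrate (5.33, SE 0.43, edgeR adjusted p = 0.00041), called in all 18 alternatives, with a value of 6.15 without Nkx castrate 1. Lbp is best known as a plasma protein made by the liver. The 8 hepatocyte plasma protein markers summed to at most 2.44 CPM in any library. In the Clu libraries all of them, Alb included, had 0 counts except Ttr (11 and 2 counts). The part of liver RNA in the Lbp values was not tested.

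The receptors that take endotoxin from Lbp had 1 call among the 3 genes and 3 comparisons. Cd14 was between 17.8 and 32.9 CPM in the 6 libraries, with overlapping groups and no call in any comparison by edgeR. Ly96, the cofactor of TLR4, was between 0.739 and 2.87 CPM, also without a call. Tlr4 itself was at 13.9 and 15.4 CPM in the Nkx intact pair, 22.8 and 31.8 CPM in the castrate pair, and 40.4 and 28.6 CPM in the Clu pair. Its difference between the intact lines passed (log2 fold change 1.24, edgeR adjusted p = 0.0312) and was lost without any one of the 4 libraries compared (adjusted p up to 0.234).

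Cp, the ferroxidase, was at 252 CPM in each Nkx intact library, 67.2 and 69.6 CPM in the castrate pair, and 37.0 and 53.8 CPM in the Clu pair. The groups did not overlap, and the replicate gaps were small in the Nkx groups (at most 1.04-fold). Cp fell 3.69-fold with castration (log2 fold change -1.88, SE 0.21, edgeR adjusted p = 0.00249) and was 5.56-fold lower in Clu intact than in Nkx intact (-2.47, SE 0.22, adjusted p = 0.000731). Both calls held in all 18 alternatives. The lower level in Clu intact than in Nkx castrate did not pass (-0.59, SE 0.21, edgeR adjusted p = 0.0889), although DESeq2 called it (adjusted p = 0.0445). The gene overlaps Hps3 on the opposite strand, and the strand setting of the counting is not given, so reads where they overlap cannot be assigned with certainty.

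Lcn2, the siderophore binder, was at 44.4 and 35.0 CPM in the Nkx intact pair, 25.1 and 26.8 CPM in the castrate pair, and 8.27 and 17.1 CPM in the Clu pair. The order of the groups was that of Cp, and they did not overlap. Clu intact was 3.13-fold below Nkx intact (log2 fold change -1.65, SE 0.36, edgeR adjusted p = 0.0244). The call was lost with a 1.5-fold minimum (edgeR adjusted p = 0.0654) and without Nkx intact 1 (0.167), Nkx intact 2 (0.0987) or Clu intact 1 (0.134), and the value was -2.25 without Clu intact 2. The castration change of -0.61 (SE 0.34, edgeR adjusted p = 0.335) did not pass. Neither did the difference between Clu intact and Nkx castrate (-1.03, SE 0.35, edgeR adjusted p = 0.0836), which edgeR called without the filter on low counts (adjusted p = 0.00995), which DESeq2 called (adjusted p = 0.0438) and which was -0.58 without Clu intact 1 and -1.62 without Clu intact 2.

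Ltf, the other iron-withholding protein, had 0 counts in both Nkx intact libraries, 6 and 0 counts in Nkx castrate, and 16 and 46 counts in Clu intact (1.35 and 4.33 CPM). Ltf passed the filter on low counts through these Clu libraries, so its ratios and calls in Clu intact are a description. A count of 0 over the Nkx intact libraries allows up to 0.146 CPM at 3 counts. The 95% counting interval of the ratio of Clu intact to Nkx intact began at 14.9, or at 7.24 on halved counts, and had no upper end. The difference did not pass in edgeR (adjusted p = 0.08), and it was called by DESeq2 (adjusted p = 0.0128), without the filter on low counts (edgeR adjusted p = 0.00889), with only the 4 libraries compared (edgeR adjusted p = 0.00829), and also without either castrate library (0.0138 and 0.0196). Against Nkx castrate the ratio of summed counts was 14.4 (95% counting interval 6.26 to 40.8, or 4.49 to 73.6 on halved counts), not called by edgeR (adjusted p = 0.141). Without Nkx castrate 1, whose 6 counts are all of that group, it was called (edgeR adjusted p = 0.046). Ltf and Lcn2 were thus in opposite order in the intact lines.

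C3, the core of complement, was at 18.4 and 18.96 CPM in the Nkx intact pair, 107.7 and 11.4 CPM in the castrate pair, and 93.8 and 87.1 CPM in the Clu pair. The Nkx castrate libraries differed 9.46-fold and enclosed the other 4 libraries. The Nkx intact and Clu intact libraries lay apart from each other with replicate gaps of at most 1.08-fold. No difference of C3 was called by edgeR over the 6 libraries. Its log2 fold change was 1.68 with castration (SE 0.80, edgeR adjusted p = 0.254) and became -0.71 without Nkx castrate 1 (adjusted p = 0.0657) and 2.52 without Nkx castrate 2 (adjusted p = 1.35e-05). Between the intact lines it was 2.28 (SE 0.81, edgeR adjusted p = 0.121), and with only those 4 libraries it was called at the same value (2.28, adjusted p = 1.77e-05), as it was without Nkx castrate 1 (adjusted p = 3.64e-06) or Nkx castrate 2 (adjusted p = 4.36e-06). Without the filter on low counts edgeR called C3 after castration (adjusted p = 1.14e-08) and between the intact lines (adjusted p = 1.48e-15). The spread of the castrate libraries enters the shared error of the 6-library fit. Between Clu intact and Nkx castrate it was 0.60 (edgeR adjusted p = 0.631), 2.99 without Nkx castrate 1 (adjusted p = 6.56e-06), and -0.24 without Nkx castrate 2.

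Marker RNA of endothelial cells, fibroblasts and smooth muscle, and macrophages split the castrate libraries as C3 did. Between the intact lines, only the endothelial of these 3 sums went the way of C3. The sum of the 10 endothelial markers was 68.4 and 47.7 CPM in the Nkx intact pair, 415 and 65.3 CPM in the castrate pair, and 1028 and 424 CPM in the Clu pair. The 12 fibroblast and smooth muscle markers summed to 762 and 628 CPM, 2210 and 552 CPM, and 720 and 581 CPM in the same order, and the 12 macrophage markers to 154 and 143 CPM, 258 and 47.8 CPM, and 74.6 and 79.3 CPM. Nkx castrate 1 was the higher of its pair in all these sums. Of the 3 sums only the endothelial one was higher in both Clu libraries than in Nkx intact. The macrophage sum was lower there, and the fibroblast and smooth muscle sums of the intact groups overlapped. The genes behind that overlap went different ways. Acta2, Myh11, Des, Cnn1, Lum and Col3a1 were higher in both Clu libraries than in Nkx intact, the way of C3. Myh11 reached at most 64.7 CPM in Nkx intact, while Clu intact had at least 90.4 CPM. Dcn, the largest marker of this sum in Nkx intact (at least 335 CPM), was lower in Clu intact (at most 107 CPM), as was Pdgfrb. Col1a1, Col1a2, Pdgfra and Tagln overlapped. Within Clu intact the endothelial sum differed 2.43-fold while C3 differed 1.08-fold. The 8 T cell markers, which were rare, summed to 1.53 and 1.28 CPM in Nkx intact. They summed to 14.0 and 3.99 CPM in Nkx castrate and to 4.56 and 2.07 CPM in Clu intact, also the way of C3. The neutrophil and the plasma and B cell sums split the castrate pair too, but were lower in both Clu libraries than in Nkx intact. The part of these cells in the C3 values was not tested.

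**Figure D3:**
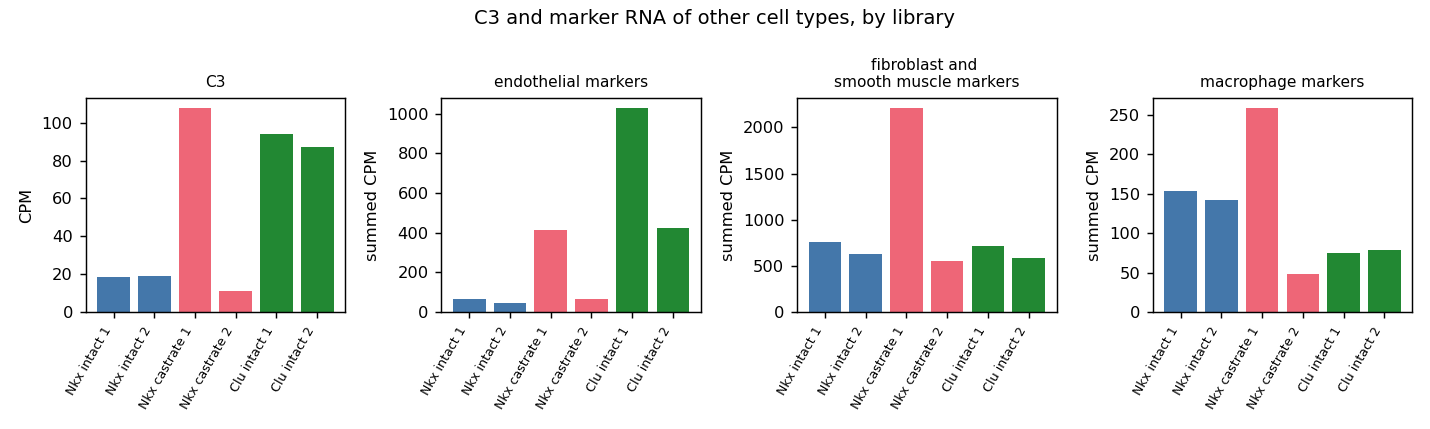
C3 in CPM and the summed CPM of endothelial, fibroblast and smooth muscle, and macrophage markers in each library (bars from 0, coloured by group). Nkx castrate 1 exceeds Nkx castrate 2 in all 4 panels, and Clu intact is high for C3 and for endothelial markers.

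Cfb and Slpi were near the limit of detection. Cfb, the partner of C3 in the alternative pathway, had 0 and 2 counts in Nkx intact, 20 and 0 counts in Nkx castrate, and 8 and 9 counts in Clu intact. All castrate counts came from Nkx castrate 1, the library in which C3 was also high. The ratio of Clu intact to Nkx intact was 7.78 (95% counting interval 1.85 to 69.4, or 1.14 to 361 on halved counts). Slpi, the protease inhibitor, had 2 and 12 counts in Nkx intact, 3 and 0 counts in Nkx castrate, and 0 and 2 counts in Clu intact. The ratio of Clu intact to Nkx intact was 0.131 (0.0144 to 0.569, or 0.0029 to 1.02 on halved counts), so on halved counts the interval reaches 1, and 12 of the 14 counts in Nkx intact came from Nkx intact 2. Neither gene was tested, because neither passed the filter.

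Divided by exon length, which allows genes to be compared, the leading member differed between the groups. In Nkx intact Cp led at 26.4 ± 0.0302 CPM per kilobase (SD, n = 2), followed by Pigr at 17.98 ± 3.58 and Lcn2 at 15.1 ± 2.54 CPM per kilobase, and those of Pigr and Lcn2 overlapped between libraries. In Nkx castrate Pigr stood at 286 ± 72.4 CPM per kilobase (SD, n = 2), and the next mean, that of C3, was 11.6 ± 13.2 CPM per kilobase and rested on Nkx castrate 1. Lcn2 at 9.89 ± 0.436 CPM per kilobase and Cp at 7.15 ± 0.178 CPM per kilobase came after it. In Clu intact Pigr stood at 110 ± 58.6 CPM per kilobase (SD, n = 2), Pglyrp1 at 52.1 ± 4.17, Lbp at 24.05 ± 2.84 and C3 at 17.6 ± 0.923 CPM per kilobase. Lcn2 at 4.84 ± 2.39 and Cp at 4.75 ± 1.24 CPM per kilobase did not differ beyond their spread there. Lengths were the union of exons in GENCODE M21. On the longest transcript instead, Lcn2 (28.9) came before Pigr (18.8 CPM per kilobase) in Nkx intact, and both Lcn2 (18.9) and Cp (15.0 CPM per kilobase) came before C3 in Nkx castrate. In Clu intact the means of Pigr (115) and Pglyrp1 (94.9 CPM per kilobase) kept their order on that length. Within Clu intact 1, however, Pglyrp1 then came before Pigr.

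**Figure D4:**
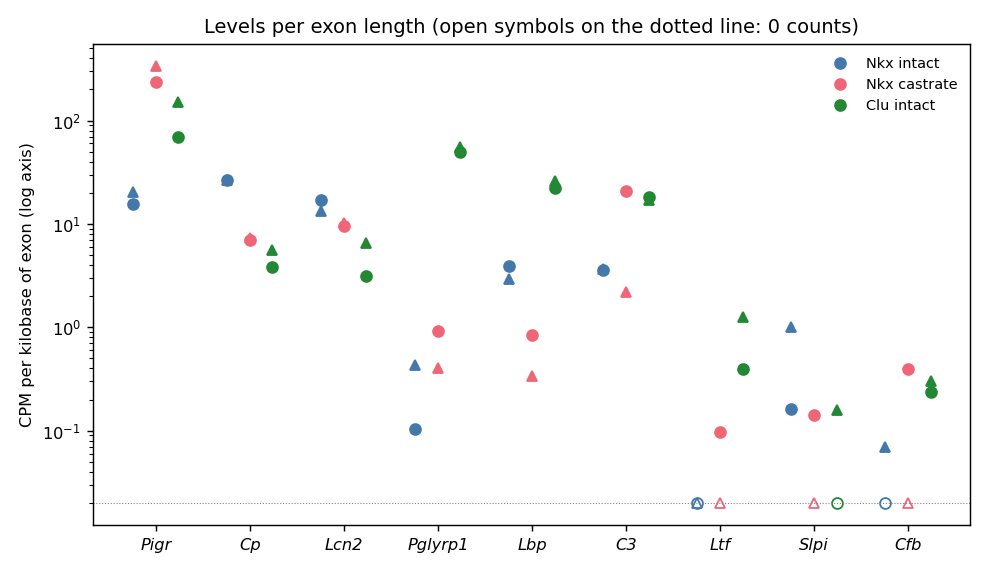
Level of the 9 genes per kilobase of exon in each library, on a log axis (circle, library 1; triangle, library 2; open symbols on the dotted line, 0 counts). Pigr is the highest member in both Nkx castrate and both Clu intact libraries, while Cp is the highest in Nkx intact.

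Profiles over the 6 libraries were compared as the root mean square difference of log2 CPM after each gene was centred on its own mean, a description with no test. Among the 7 tested members Lcn2 and Cp were closest (0.56), followed by Ltf and C3 (1.08), and Pglyrp1 and Cp were farthest apart (4.16). Outside the members, the gene nearest to Pigr was Ctse, an aspartic protease (0.27), which was at 5.36 and 5.93 CPM in the Nkx intact pair, 78.5 and 116 CPM in the castrate pair, and 35.1 and 43.6 CPM in the Clu pair. Gpx3 (0.40) and Vtcn1 (0.44) came next. The genes nearest to Lbp were Oit1 (0.29), Sbspon (0.44) and Golm1 (0.45), and those nearest to Pglyrp1 were Wfdc2 (0.61), Ppp1r3b (0.79) and Muc20 (0.81). Nearest to Lcn2 were Ggt1 (0.18), Mir6240 (0.23) and Rgs9 (0.24), and nearest to Cp were Ncoa7 (0.20), Sdk2 (0.22) and Lrp4 (0.22). For C3 they were Sox7 (0.32), an endothelial transcription factor, Calcrl (0.38) and Col6a3, a collagen chain of stromal cells (0.38).

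Other secreted antimicrobial and mucus genes parted the groups too. Of 17 tested genes of a list of 32, edgeR called 2 higher and 7 lower in Nkx castrate than in Nkx intact (11.8% and 41.2%), 7 higher and 3 lower in Clu intact than in Nkx intact (41.2% and 17.6%), and 10 higher and 1 lower in Clu intact than in Nkx castrate (58.8% and 5.9%). The medians of log2 fold change were -1.69, 4.07 and 2.97 in that order, against 0.05, -0.01 and -0.00 over all genes. Genes that passed the filter through 1 high group had to differ. The list was also chosen with earlier results of these data known. These numbers are therefore a description. Wfdc2, a secreted whey acidic protein of the family of Slpi and also 1 of the proximal luminal markers above, was at 2.49 and 2.17 CPM in the Nkx intact pair, 5.50 and 6.65 CPM in the castrate pair, and 476 and 523 CPM in the Clu pair. It was 213-fold higher in Clu intact than in Nkx intact (log2 fold change 7.74, SE 0.24, edgeR adjusted p = 1.73e-05). Spink5, an inhibitor of epithelial proteases, was at 8.23 and 7.31 CPM, 1.68 and 0 CPM, and 153 and 135 CPM in the same order. Muc20, a membrane mucin, was at 0.383 and 0.790 CPM, 1.122 and 1.035 CPM, and 32.9 and 38.3 CPM. Genes of a defensin and of mucus folding were high in Nkx intact and low after castration. Defb50 fell 18.8-fold (log2 fold change -4.23, edgeR adjusted p = 0.00186) from 276 and 260 to 9.88 and 18.8 CPM, and Agr2, a disulphide isomerase needed for mucin secretion, fell 12.5-fold (-3.64, adjusted p = 0.000677) from 232 and 297 to 26.0 and 16.3 CPM. Those 2 castration calls and the Wfdc2 call held whichever library was left out.

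**Figure D5:**
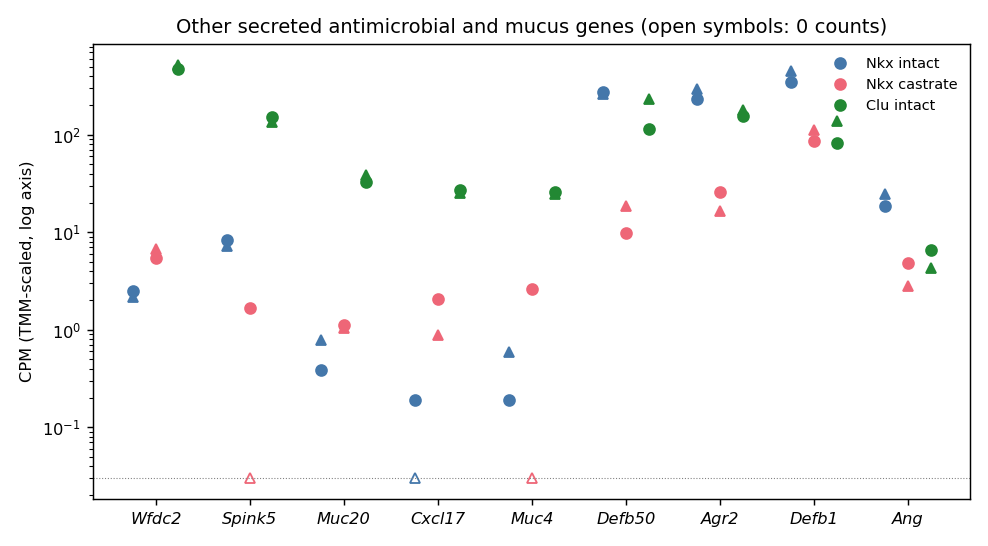
Levels of 9 other secreted antimicrobial and mucus genes in each library, in CPM on a log axis (circle, library 1; triangle, library 2; open symbols on the dotted line, 0 counts). Wfdc2, Spink5, Muc20, Cxcl17 and Muc4 are highest in both Clu intact libraries, and both Nkx castrate libraries lie lowest for Defb50 and Agr2.

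The calls in the 5 lists that follow stand beside shares among all tested genes of 4.02% higher and 4.59% lower with castration, 6.29% and 5% between the intact lines, and 8.82% and 8.1% between Clu intact and Nkx castrate. A share of a list near these is not a result about the list. Of 25 tested complement genes and regulators, 1 was higher and 2 lower with castration (4% and 8%), 4 higher and 1 lower in Clu intact than in Nkx intact (16% and 4%), and 5 higher and 2 lower in Clu intact than in Nkx castrate (20% and 8%, edgeR), and the medians lay between -0.15 and 0.05. Cd59a, a membrane inhibitor of the final complement complex, was at 0.383 and 0 CPM in the Nkx intact pair, 1.122 and 1.331 CPM in the castrate pair, and 91.5 and 40.8 CPM in the Clu pair. It is also made by endothelial cells, whose marker sum was 2.43 times as high in Clu intact 1 as in Clu intact 2. Their part in it was not tested. Cfd, the protease that activates factor B, was at most 0.191 CPM in the Nkx libraries and at 3.88 and 2.82 CPM in Clu intact. The receptors C3ar1 and C5ar1 were at most 6.91 and 4.15 CPM and were called in no comparison.

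Of 17 tested genes of endotoxin and peptidoglycan sensing, 1 was higher with castration (5.9%), 2 were higher in Clu intact than in Nkx intact (11.8%), 2 were higher in Clu intact than in Nkx castrate (11.8%), and none was called lower in these comparisons (edgeR). Each share rests on 1 or 2 genes. Tlr5, the flagellin receptor, was at 2.87 and 6.32 CPM in the Nkx intact pair, 19.6 and 30.2 CPM in the castrate pair, and 44.7 and 47.9 CPM in the Clu pair. It was 10.1-fold higher in Clu intact than in Nkx intact (log2 fold change 3.33, SE 0.41, edgeR adjusted p = 0.00283, and 4.01 without Nkx intact 2). Of 11 tested genes of immunoglobulin transport, 1 rose and 1 fell with castration (9.1% each), 1 was higher in Clu intact than in Nkx intact (9.1%), and 2 were higher and 2 lower in Clu intact than in Nkx castrate (18.2% each). These shares, too, rest on 1 or 2 genes. Rab3d, a GTPase of secretory granules, fell 3.90-fold with castration (from 131 and 158 to 39.3 and 34.7 CPM, edgeR adjusted p = 0.00139). It stood at 181 and 205 CPM in Clu intact, so it ran against Pigr in the Nkx line.

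Of 27 tested genes of iron and copper handling, 2 rose and 2 fell with castration (7.4% each), 2 were higher and 4 lower in Clu intact than in Nkx intact (7.4% and 14.8%), and 3 higher and 2 lower in Clu intact than in Nkx castrate (11.1% and 7.4%, edgeR). Slc40a1, the iron exporter that works with ferroxidases such as Cp, was at 17.2 and 16.3 CPM in the Nkx intact pair, 56.9 and 62.1 CPM in the castrate pair, and 41.3 and 32.4 CPM in the Clu pair. It rose with castration (log2 fold change 1.83, SE 0.23, edgeR adjusted p = 0.00384, lost without Nkx intact 2 at 0.0596), where Cp fell. Slc22a17, a receptor of lipocalin 2, was between 18.6 and 30.6 CPM and was called in no comparison. Of 30 tested cytokine receptors and factors known to induce such genes, 1 rose and 3 fell with castration (3.3% and 10%), 3 were higher and 3 lower in Clu intact than in Nkx intact (10% each), and 5 higher and 10 lower in Clu intact than in Nkx castrate (16.7% and 33.3%). Elf3, an epithelial transcription factor, was at 53.5 and 39.5 CPM, 64.5 and 71.0 CPM, and 187 and 210 CPM in the order of the groups, 4.27-fold higher in Clu intact than in Nkx intact (edgeR adjusted p = 0.00112). Cebpb, a C/EBP factor, was at 296 and 204 CPM, 316 and 211 CPM, and 74.7 and 55.2 CPM. It was 4.06-fold lower in Clu intact than in Nkx castrate (edgeR adjusted p = 0.00329).

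The counts over these lists moved with single libraries. Those over all tested genes did so too, as given at the end, so this is not particular to the lists. Over the 6 lists and 127 tested genes, 8 were higher and 15 lower with castration. Leaving out Nkx intact 1 gave 2 and 6, Nkx intact 2 gave 1 and 3, Nkx castrate 1 gave 15 and 30, and Nkx castrate 2 gave 19 and 19. For Clu intact against Nkx intact, the full counts were 19 and 11. Leaving out Nkx intact 1 gave 8 and 1, Nkx intact 2 gave 9 and 2, Nkx castrate 1 gave 32 and 24, Nkx castrate 2 gave 32 and 25, Clu intact 1 gave 9 and 3, and Clu intact 2 gave 10 and 2. For Clu intact against Nkx castrate, the full counts were 27 and 17. They were 20 and 10 with Nkx intact 1 left out, 19 and 10 with Nkx intact 2, 41 and 15 with Nkx castrate 1, 33 and 29 with Nkx castrate 2, 15 and 5 with Clu intact 1, and 13 and 2 with Clu intact 2.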

How the data were processed

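RNA of sorted reporter-positive cells (2 ng per library) entered a stranded total RNA kit, per the labels. The values are raw counts by gene symbol, as the authors deposited them. The submitters' processing notes name the build GRCm39, Subread 2.0.1 (featureCounts), STAR 2.7.9a and FastQC 0.11.9. What annotation release and strand setting were used, and how read pairs and molecular identifiers were handled, is not given in the sources used here. Genes were filtered with filterByExpr (13846 of 24498 genes kept, 7 of 9 members), scaled by TMM and fitted with edgeR 4.0.16 (R 4.3.3; glmQLFit, a mean per group over all 6 libraries, 3 residual degrees of freedom). Tests were two-sided quasi-likelihood F tests with Benjamini-Hochberg adjustment over all tested genes, called under 0.05. The SE is the log2 fold change divided by the root of F. DESeq2 1.42.0 and limma 3.58.1 (voom) were alternatives, with other scalings and filters and each library left out. The fitting scripts were tested on simulated data. Other genes were named by rule: up to 4 called genes per list and comparison with the largest change, at least 10 CPM and no overlap, of which a part is given, plus direct partners and the 3 nearest profiles. The members and lists were chosen with earlier results of these data known. Replicate numbers were not treated as pairs. Some items that the rule names are not reported here. 1 count was 0.0561 to 0.0988 CPM.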

Additional observations from a re-analysis of the deposited data

How the results depend on the processing

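Of the members' log2 fold changes recomputed with 1 library left out, 104 kept their direction and side of the threshold, 11 lost a call, 8 gained one and 2 reversed. With other settings 231 kept both, 4 lost a call, 9 gained one and none reversed. Both reversals concerned C3: -0.71 after castration without Nkx castrate 1 (2.52 without Nkx castrate 2), and -0.24 between Clu intact and Nkx castrate without Nkx castrate 2 (2.99 without Nkx castrate 1). The cause of these and of the changes below was not tested, beyond the fewer libraries or genes that a setting uses.

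With 1 library left out, the genes called after castration ranged from 72 to 1220 higher and 137 to 1323 lower, with 1 to 3 members higher and 1 to 2 lower. Between the intact lines they ranged from 214 to 1790 higher and 157 to 1561 lower (members 1 to 5 and 1 to 2). Between Clu intact and Nkx castrate they ranged from 417 to 2010 higher and 270 to 1844 lower (members 2 to 4 and 0 to 1).

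Without the filter on low counts, castration gave 1197 genes higher and 1103 lower (2 members higher), the intact lines 1467 and 1198 (5 members higher), and Clu intact against Nkx castrate 1736 genes lower (2 members lower). DESeq2 gave 1021 and 994 genes after castration, 1320 and 1137 between the intact lines, and 1732 lower between Clu intact and Nkx castrate (3 members lower). A fit on only the 4 libraries compared gave 297 and 374 genes after castration (1 member lower), 1761 and 1548 between the intact lines (5 members higher), and 0 members lower between Clu intact and Nkx castrate. A test against a 1.5-fold minimum gave 251 and 286, 471 and 334 (1 member lower), and 630 and 522 (0 members lower) in the order of the comparisons.

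Same-numbered libraries of the groups deviated together only weakly (r across genes 0.09, 0.04 and 0.23). The labels do not tie the numbers to a shared source, so whether such libraries share one is not known. With a replicate block, the member counts were 1 higher and 2 lower, 3 and 2, and 2 and 1, as without it, and the gene counts were 711 and 800, 1081 and 883, and 1469 and 1310. Depth limits Slpi, Cfb and Ltf, whose Nkx libraries held 0 to 20 counts. With a 5 CPM minimum in 2 libraries or with halved counts Ltf gave no value in any comparison, and after castration it gave none in the fit of the 4 libraries compared or without Nkx castrate 1, where all counts were 0. Pglyrp1 gave none after castration in the fit of the 4 libraries compared.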
